A study of Mus musculus with 4 samples.

Results

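Inward rectifier and two-pore potassium channel genes were examined in laser-captured Purkinje cells of the mouse cerebellum. Members were all probe sets whose only gene symbol was Kcnj or Kcnk followed by a number, and each gene was read from its brightest probe set. This gave 27 genes, 15 of Kcnj and 12 of Kcnk, from 49 probe sets, of 18193 named genes from 34945 probe sets. The single group held 4 samples, 2 from each of 2 intact, untreated C57BL/6J males aged 8 weeks, called 1-1 and 1-2 for animal 1 and 2-1 and 2-2 for animal 2. Brains were frozen and cut in sagittal sections, cells were taken by laser, and amplified RNA was hybridized to Affymetrix arrays. The labels do not say how many cells a sample holds, nor whether both samples of an animal were separate captures. Tests between the animals therefore measure only the spread between these samples, which may be technical.

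Inward rectifiers are tetramers of subunits with a pair of membrane-spanning segments, and they pass potassium into the cell more readily than out of it. Kir3 subunits (GIRK channels) open when Gi/o-coupled receptors such as the GABA-B receptor release G protein beta-gamma subunits, Kir6 subunits close in the presence of ATP, and Kir4.1 and Kir5.1 are known from glia and kidney. Two-pore channels carry a pair of pore loops in each subunit, work as dimers, and provide the background potassium conductance that sets the resting potential. In the cerebellum, Purkinje cells are known for GABA-B responses, Bergmann glia for Kir4.1, and granule cells for TASK background channels.

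A level here is the quantile-normalized signal on the log2 scale. The background bound of an array is the 95th percentile of 82 genes that are specific to other organs, and it lay at signals of 35.9, 31.8, 32.2 and 42.6 in samples 1-1 to 2-2. A gene below the bound was not distinguishable from such genes, which does not show that it is absent. Because probe sets respond unequally to RNA, genes are not ranked by level. The median deposited signal ran from 8.40 to 11.4 over the arrays, whose number limits the precision. Of the Purkinje cell markers, 17 of 17 measured genes were above the bound on all 4 arrays. Among markers of other cells, 15 of 18 Bergmann glia and astrocyte genes, 9 of 17 granule cell genes, 5 of 12 interneuron genes, 4 of 14 oligodendrocyte genes, 2 of 15 endothelial and pericyte genes, 1 of 13 microglia genes and 1 of 11 choroid plexus and meninges genes were. In tissue cut this way, fewer cells of a type and less RNA per cell cannot be told apart.

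Of the 27 channel genes, 4 were above the bound on all 4 arrays: the TWIK channel gene Kcnk1, the GIRK gene Kcnj3, the glial channel gene Kcnj10 and the ATP-sensitive channel gene Kcnj11. Over all named genes, 33.7% were. Another 4 genes passed on only some arrays (Kcnj9 and Kcnj16 on 2, Kcnk3 and Kcnk15 on 1), and 19 passed on none, 10 of Kcnj and 9 of Kcnk. These counts read each gene from its brightest probe set, and Kcnj9 passed on all 4 arrays on its second probe set, 1428602_at. At least 1 array was passed by 51.6% of named genes. The median distance of the mean level from the bound was -2.34 on the log2 scale over the 27 genes and -0.89 over all named genes. Other potassium channel alpha subunits (voltage-gated, calcium-activated and sodium-activated) passed on all 4 arrays in 10 of 39 cases, with a median distance of -1.82. With the bound at the 99th percentile, 2 channel genes remained, Kcnj3 and Kcnk1. With the median over the probe sets of a gene there were also 2, Kcnj10 and Kcnk1.

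**Figure D1:**
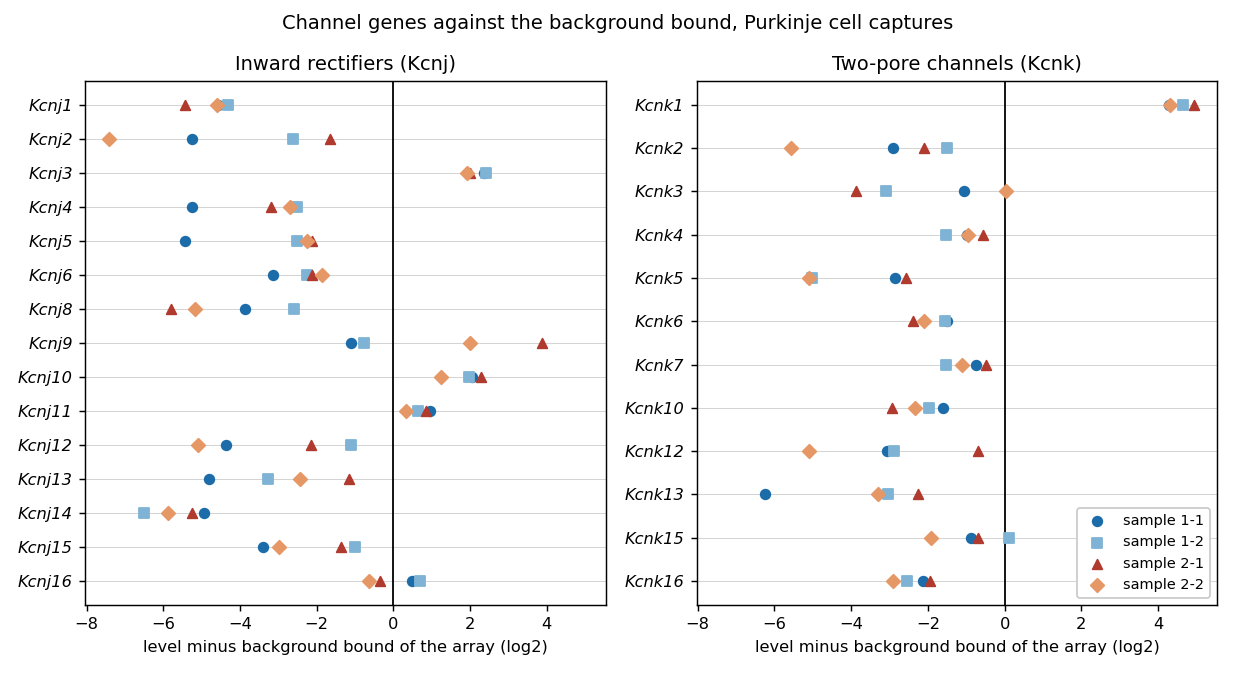
Level minus the background bound of the same array (x axis, log2) for 15 Kcnj genes (left) and 12 Kcnk genes (right), with 1 symbol per sample and a line at the bound. All 4 samples lie to the right of the line for Kcnj3, Kcnj10, Kcnj11 and Kcnk1, and Kcnj9 lies to the right only in the samples of animal 2.

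Kcnk1 encodes TWIK-1, a weakly conducting two-pore channel that was the founding mammalian member of its family. Its probe set 1448690_at had deposited signals of 578 and 682 in animal 1 and of 1046 and 1066 in animal 2. After normalization these were levels of 9.46, 9.66, 9.94 and 9.72, which lay 4.29 to 4.93 above the bounds of their arrays. The mean level was 9.69 ± 0.19 (SD, n = 2 animals). The samples of animal 2 were both above those of animal 1, by a difference in means of 0.27 ± 0.19 (SE, limma, adjusted p = 0.538), which was not called. Of all probe sets above the bound in both animals, 21% were likewise higher in animal 2 without overlap. A second probe set, 1455896_a_at, was far dimmer, with deposited signals of 20.4, 30.3, 54.3 and 56.4, and was above the bound on 3 of 4 arrays. The 300 bases around the RefSeq start of Kcnk1, where this gene passed on every array, are shown for the layout of the promoter window, from 250 bases before to 50 after the start, with every CG pair in capitals (GRCm38.p6, chr8:125994852-125995151, plus strand).
Kcnk1: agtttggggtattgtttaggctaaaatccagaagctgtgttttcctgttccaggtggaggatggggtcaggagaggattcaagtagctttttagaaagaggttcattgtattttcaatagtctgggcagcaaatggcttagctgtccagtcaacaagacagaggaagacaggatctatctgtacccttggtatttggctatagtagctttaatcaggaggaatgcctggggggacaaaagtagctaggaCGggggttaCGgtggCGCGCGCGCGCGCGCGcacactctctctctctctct
This window held 10 CG pairs, a count that 43.5% of all promoter windows of that length reach or exceed. Most of them lay in 1 run of repeated CG just after the start.

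The other two-pore channel genes were at or below the bound. Kcnk3, which encodes the acid-sensitive channel TASK-1, had deposited signals of 15.6, 3.70, 2.10 and 57.0. Only sample 2-2 passed, by 0.03 on the log2 scale, and sample 2-1 from the same animal was the lowest. Its other probe sets were below the bound on every array. Kcnk15, a TASK-like subunit gene, had signals of 17.4, 28.8, 19.8 and 13.5 and passed only in sample 1-2, by 0.10. The TASK-3 gene Kcnk9, a channel known from granule cells, was not analysed here, nor was Kcnk18.

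All 3 genes of the mechanically gated TREK and TRAAK channels, Kcnk2, Kcnk4 and Kcnk10, were below the bound on every array, as were the THIK genes Kcnk12 and Kcnk13, the TALK genes Kcnk5 and Kcnk16, and the TWIK relatives Kcnk6 and Kcnk7. Kcnk7 and Kcnk4 came closest, with mean levels of 4.18 ± 0.33 and 4.14 ± 0.45 (SD, n = 2 animals), and reached to 0.49 and 0.56 below the bound of their best array.

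Kcnj3 encodes GIRK1, the subunit that most neuronal GIRK channels contain. The probe set 1455374_at had deposited signals of 147 and 135 in animal 1 and of 141 and 209 in animal 2. Levels were 7.52, 7.40, 7.02 and 7.32, and all lay 1.91 to 2.41 above the bound. The mean was 7.31 ± 0.20 (SD, n = 2 animals). The other 3 of its 4 probe sets passed on no array. The nearest of them, 1421468_at, had signals from 21.0 to 28.7 and a mean level of 4.60 ± 0.13. The level above the bound therefore rests on 1 probe set.

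Kcnj9 encodes GIRK3, a subunit known from brain that assembles with GIRK1 or GIRK2. Its brightest probe set, 1450712_at, had deposited signals of 15.0 and 16.6 in animal 1 and of 496 and 221 in animal 2. Both samples of animal 1 were below the bound and both of animal 2 were above it, by 3.86 and 1.99 on the log2 scale. Animal 1 gives only an upper bound, so animal 2 was at least 8.33-fold higher, its mean level of 8.14 set against the mean bound of 5.08 in animal 1. The measured mean of animal 1 was 4.14, and the fitted difference of 4.0 ± 0.61 (SE, limma, adjusted p = 0.0738) was not called. This probe set entered the test only through the animal in which it was high. The probe set 1428602_at, almost as bright on average, passed the bound on all 4 arrays, with deposited signals of 40.0 and 39.3 in animal 1 and of 114 and 101 in animal 2. There the difference was 0.88 ± 0.48 (SE, limma, adjusted p = 0.433), also not called.

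Both remaining Kcnj9 probe sets passed on no array. The signals of 1426115_a_at were 1.20, 0.70, 11.2 and 11.6, and those of 1433029_at were 8.10, 0.40, 13.9 and 6.90. None of these was distinguishable from the background genes. The ratio of animal 2 to animal 1 was at least 8.33-fold on 1450712_at and 1.84-fold on 1428602_at, and the difference between these ratios was not tested. Without sample 2-1 or 2-2, the brightest probe set of Kcnj9 became 1428602_at and the gene counted as above the bound on all remaining arrays.

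**Figure D2:**
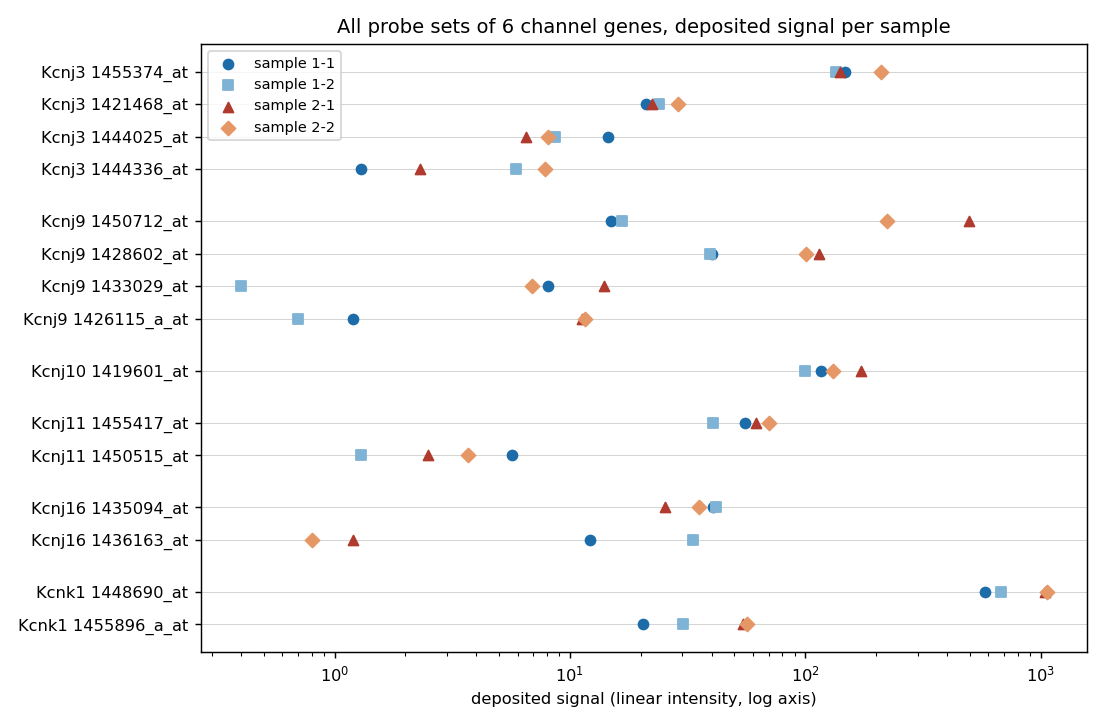
Deposited signal (x axis, linear intensity on a log axis) of each probe set of Kcnj3, Kcnj9, Kcnj10, Kcnj11, Kcnj16 and Kcnk1, with 1 symbol per sample. For Kcnj9 the samples of animal 2 lie far to the right of those of animal 1 on 1450712_at (221 and 496 against 15.0 and 16.6) and less so on 1428602_at.

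The other GIRK genes were not seen above background. Kcnj6, which encodes GIRK2, the usual partner of GIRK1 in neurons, was below the bound on all 4 arrays on each of its 5 probe sets. Its brightest, 1421581_at, had signals of 3.70, 6.20, 7.40 and 14.0 and a mean level of 2.80 ± 0.58 (SD, n = 2 animals). Kcnj5, the GIRK4 gene known best from the heart atrium, was below the bound on both of its probe sets, with a mean level of 2.07 ± 1.37 on the brighter.

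Kcnj11 encodes Kir6.2, the pore of the ATP-sensitive channel of neurons and pancreatic beta cells. Deposited signals on 1455417_at were 55.3, 40.5, 61.8 and 69.9, and the mean level was 5.83 ± 0.06 (SD, n = 2 animals). All arrays passed, by 0.32 to 0.95, which made it the nearest to the bound of the 4 genes that passed throughout. Its mean level was 0.69 under a bound set at the 99th percentile. The second probe set, 1450515_at, had signals from 1.30 to 5.70 and passed nowhere. Kcnj8, the Kir6.1 gene known from vascular muscle and pericytes, was below the bound on every array (0.79 ± 1.52). The sulfonylurea receptors complete these channels. Abcc8 (SUR1) passed on 1 array, with a mean level of 4.89 ± 0.20, and Abcc9 (SUR2) on none, at 2.46 ± 1.12.

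Kcnj10 encodes Kir4.1, the main potassium channel of astrocytes and Bergmann glia. Its only probe set, 1419601_at, had deposited signals of 117 and 100 in animal 1 and of 172 and 131 in animal 2. Levels were 7.22, 6.97, 7.29 and 6.64, all 1.23 to 2.28 above the bound, with the highest and the lowest both in animal 2. The mean was 7.03 ± 0.09 (SD, n = 2 animals). Not all arrays passed the bound at the 99th percentile. In the same samples the glial marker list had summed normalized signals of 16186, 15681, 14055 and 12880, and only Hes5 and Slc6a11 of its 18 genes passed on no array. The part of glial RNA in the Kcnj10 signal was not tested.

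Kcnj16 encodes Kir5.1, which forms channels together with Kir4.1. On 1435094_at the deposited signals were 40.4 and 41.7 in animal 1 and 25.3 and 35.2 in animal 2, and only animal 1 passed the bound. Set against the bound in animal 2, animal 1 was at least 1.37-fold higher. The fitted difference, which takes the values below the bound as measured, was -0.94 ± 0.67 on the log2 scale (SE, limma, adjusted p = 0.539) and was not called. This probe set entered the test only through animal 1. The second probe set, 1436163_at, had signals of 12.2 and 33.2 against 1.20 and 0.80, and passed only in sample 1-2. The animals did not overlap on either probe set, which supports nothing here. The first was selected through animal 1, and the second was too dim to be tested. Of all probe sets tested, 25.3% were lower in animal 2 without overlap. Summed marker signals were also lower in animal 2 for glia, as given above, for granule cells (4960 and 5947 against 2386 and 2410), for endothelial cells and pericytes (957 and 1024 against 598 and 535), for oligodendrocytes (5623 and 5343 against 4788 and 3565), for microglia (304 and 244 against 174 and 205) and for choroid plexus and meninges (640.0 and 627 against 549 and 556). The interneuron list was higher (1493 and 1830 against 2438 and 1936). Sums follow the bright genes. Of the 15 glial markers above the bound on all 4 arrays, 9 had a lower mean level in animal 2. The other 6 were higher, Gfap, Glul and Fabp7 among them, while all 9 such granule cell markers were lower. Such oligodendrocyte markers were 2 lower and 2 higher, vascular ones 1 and 1, and interneuron ones 2 and 3. Microglia and choroid plexus each had only 1 such marker, lower in animal 2. Of the granule cell list, Slc17a7, Zic2, Pax6 and Uncx were below the bound on every array, and 9 of 15 vascular genes were, Pecam1 and Cdh5 among them. The part of these cells in the Kcnj16 values was not tested.

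**Figure D3:**
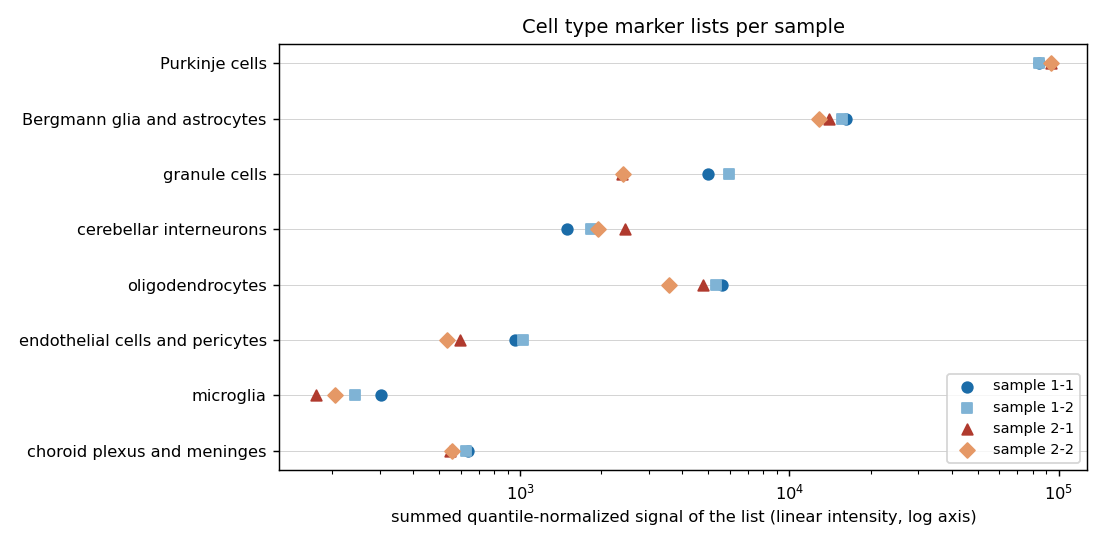
Summed quantile-normalized signal of each cell type marker list (x axis, linear intensity on a log axis), with 1 symbol per sample. The Purkinje cell list is higher in both samples of animal 2 (93439 and 93472) than in those of animal 1 (84878 and 84597), and the granule cell, glial, vascular, oligodendrocyte, microglia and choroid plexus lists are lower, while the interneuron list is higher. Of the 17 Purkinje cell markers, 11 had a higher mean level in animal 2 and 5 a lower one. Their median difference was 0.08 on the log2 scale, so the higher sum is not a rise of every marker.

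The remaining inward rectifiers passed the bound nowhere. The classical, strongly rectifying Kir2 genes Kcnj2, Kcnj4, Kcnj12 and Kcnj14 had mean levels of 0.91 ± 0.34, 1.74 ± 0.76, 1.97 ± 0.53 and -0.50 ± 0.21 (SD, n = 2 animals), each from 1 probe set. Kcnj12 scattered from a deposited signal of 1.5 in samples 1-1 and 2-2 to 13.2 in sample 1-2, both extremes below the bound. The renal channel gene Kcnj1 (0.41 ± 0.31), the epithelial channel gene Kcnj13 (2.23 ± 1.68), known from choroid plexus, and Kcnj15 (2.97 ± 0.11) were the others. Of the 19 genes that passed nowhere, the highest single deposited signal was 27.8.

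Differences between the 2 animals were tested on 8 probe sets of 6 channel genes, those above the bound on at least 2 arrays. By limma with Benjamini-Hochberg adjustment over 13468 probe sets, 0 of the 8 were called, where 0.178% of all probe sets tested were (24). At an unadjusted p under 0.05 there was 1 of the 8, Kcnj9 on 1450712_at, where 15.8% of all were. That probe set and 1435094_at of Kcnj16 passed the filter through 1 animal alone, so they had to differ and support nothing here. With them, 4 of the 8 were higher in animal 2 without overlap (21.9% of all) and 2 were lower (25.3% of all). Of the other 6, which passed the bound in both animals, 3 were higher in animal 2 without overlap (21% of such probe sets) and 1 was lower without overlap (22.8%). The median difference of the 8 was 0.09 on the log2 scale and that of all probe sets -0.06, and the median absolute differences were 0.49 and 0.45. On values as deposited, where all probe sets tested stood a median of 0.46 higher in animal 2, Kcnj9 on 1450712_at was called (4.39 ± 0.57, SE, limma, adjusted p = 0.0258). It was not called with the arrays scaled to 1 trimmed mean (adjusted p = 0.0761), and its adjusted p ran from 8.58e-04 to 0.286 over the limma alternatives in which it was tested. Differences on the other probe sets were -0.29 ± 0.35 for Kcnj3, -0.12 ± 0.41 for Kcnj10, -0.08 ± 0.52 for Kcnj11 and 0.69 ± 0.68 for the dim Kcnk1 probe set. The signs for Kcnj3, Kcnj10 and Kcnj11 were positive on values as deposited, so no direction is given for these 3 genes.

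**Figure D4:**
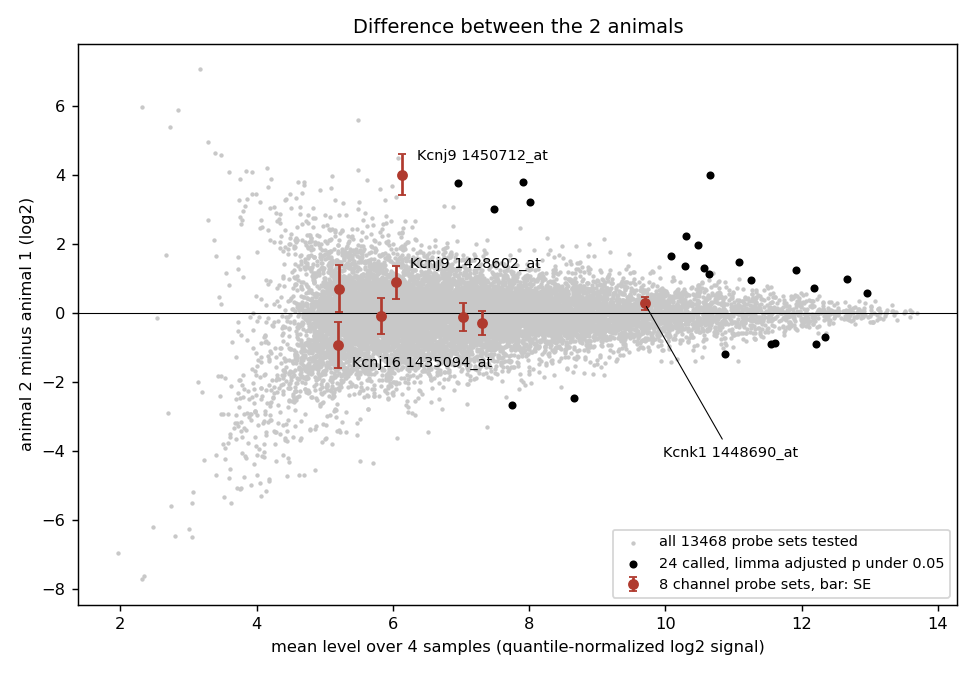
Animal 2 minus animal 1 (y axis, log2) against the mean level over 4 samples (x axis, quantile-normalized log2 signal) for 13468 probe sets (grey), the 24 called by limma (black) and 8 channel probe sets (red, bars are SE). Kcnj9 on 1450712_at stands at 4.0, a fitted value against signals below the bound in animal 1, and the other 7 channel probe sets lie between -0.94 and 0.88.

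Of the channel probe sets, 5 passed the bound throughout. Their absolute log2 difference had a median of 0.20 between the samples of animal 1 and of 0.30 between those of animal 2. Between samples of different animals it lay between 0.10 and 0.49. The same measure over 9482 probe sets was 0.24 and 0.40 within animals and 0.43 to 0.46 between them. For the channels the mean between animals exceeded that within animals by 0.07, and by 0.38 on values as deposited. On deposited values, all probe sets tested stood a median of 0.46 higher in animal 2.

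Partners of these channels were read from lists of genes, of which 32 of 65 measured passed on all 4 arrays, beside 33.7% of all named genes. Of the G protein alpha subunits of the Gi/o class and the beta subunits, 8 of 10 passed. Gnai1 was at 12.84 ± 0.24 (SD, n = 2 animals), and Gnb1, which supplies the beta subunit that opens GIRK channels, at 10.02 ± 0.09. The exceptions were Gnb2, above the bound on 2 arrays, and Gnb3, on none. The GABA-B receptor list passed in 1 of 4 cases, Gabbr1, the ligand-binding subunit, at 11.65 ± 0.05. Its auxiliary subunit gene Kctd8 passed on 1 array, and Kctd12b and Kctd16 on none, while Gabbr2 and Kctd12 were not analysed here. Of 17 other receptor genes known to couple to GIRK channels, 2 passed, the serotonin receptor gene Htr1b at 9.01 ± 0.21 and the cannabinoid receptor gene Cnr1 at 7.49 ± 0.72.

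RGS proteins speed the closing of GIRK channels by turning G proteins off. Of the RGS and trafficking list, 4 of 9 passed: Rgs8 (11.53 ± 0.39, SD, n = 2 animals), the membrane anchor gene Rgs7bp (10.06 ± 0.18), Rgs7 (8.55 ± 0.26) and the sorting nexin gene Snx27 (7.12 ± 0.77), whose protein binds GIRK subunits. Rgs4 passed on 2 arrays, and Rgs6, Rgs9, Rgs11 and Rgs9bp on none. Rgs8 also stands on the Purkinje cell marker list. Genes in the synthesis pathway of the membrane lipid PIP2, which all inward rectifiers need to open, passed in 5 of 6 cases. Pi4ka was at 9.02 ± 0.37 and Pi4k2a at 8.44 ± 0.17, and Pi4kb passed nowhere. Scaffold and interactor genes passed in 12 of 17 cases, among them the 14-3-3 genes Ywhab (12.88 ± 0.06) and Ywhaz (11.74 ± 0.46). The exceptions were Dlg4, on 1 array, Cask and Cyth2, on 3 each, and Magi1 and Akap5, on none.

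Of 72 probe sets of these partner genes tested between the animals, 1 was called (0.178% of all probe sets tested were), 1458534_at of Rgs7bp, with a difference of 3.77 ± 0.39 in favour of animal 2 (SE, limma, adjusted p = 0.0415). Its deposited signals were 48.8 and 56.2 in animal 1 and 1306 and 820 in animal 2. Its other probe sets stood at -0.26 ± 0.19 and -0.26 ± 0.25. The difference between these probe sets was not tested.

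**Figure D5:**
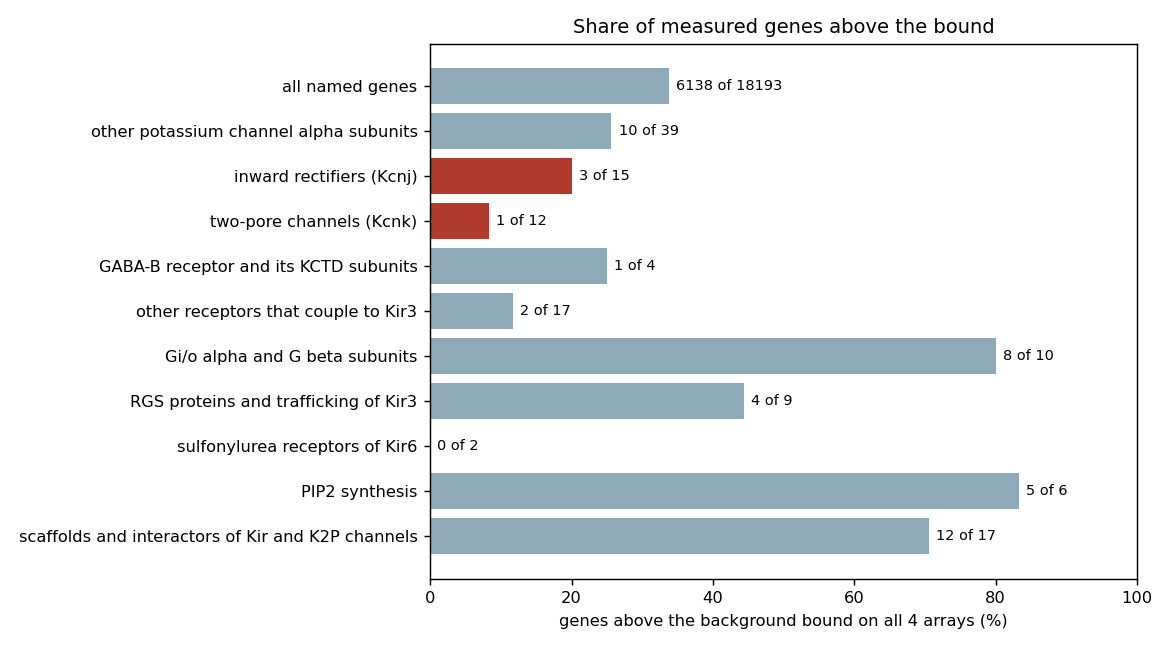
Share of measured genes above the background bound on all 4 arrays (x axis, percent) for all named genes, other potassium channel genes, the Kcnj and Kcnk genes (red) and the partner lists, with the counts beside the bars. The bars for Kcnj (3 of 15) and Kcnk (1 of 12) are shorter than that for all named genes (6138 of 18193). So are those for other potassium channel genes, the GABA-B receptor list, the other receptors and the sulfonylurea receptors. Those for G protein subunits, PIP2 synthesis, scaffolds and interactors, and the RGS and trafficking list are longer.

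Several of these genes are neighbours in the mouse genome, by the order of protein-coding genes in the RefSeq table of GRCm38.p6. There were 5 such pairs of channel genes and 2 pairs of a Kir6 gene with its sulfonylurea receptor. Read from the brightest probe set of each gene, no pair of the 7 had both genes above the bound on all 4 arrays, although Kcnj9 passed throughout on 1428602_at beside Kcnj10. Kcnj5 and Kcnj1, Kcnj6 and Kcnj15, Kcnk5 and Kcnk16, and Kcnj8 and Abcc9 passed on no array. Kcnj16 passed on 2 arrays beside Kcnj2 on none, and Kcnj11 on 4 beside Abcc8 on 1. Kcnj9 and Kcnj10 passed on 2 and 4 arrays, and 1 is known from neurons and the other from glia.

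The RefSeq starts of Kcnj9 and Kcnj10 lie 11.9 kb apart and point away from each other. Their promoter windows are shown to compare the pair, with CG in capitals, each read in the direction of its gene. The Kcnj9 window lies at chr1:172329273-172329572 on the minus strand and the Kcnj10 window at chr1:172340960-172341259 on the plus strand (GRCm38.p6).
Kcnj9: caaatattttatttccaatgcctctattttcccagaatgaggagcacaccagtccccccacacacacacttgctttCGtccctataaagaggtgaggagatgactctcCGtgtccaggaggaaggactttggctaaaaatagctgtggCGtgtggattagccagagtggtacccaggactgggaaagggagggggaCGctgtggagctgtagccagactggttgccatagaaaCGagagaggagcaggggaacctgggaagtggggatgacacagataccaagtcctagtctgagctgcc
Kcnj10: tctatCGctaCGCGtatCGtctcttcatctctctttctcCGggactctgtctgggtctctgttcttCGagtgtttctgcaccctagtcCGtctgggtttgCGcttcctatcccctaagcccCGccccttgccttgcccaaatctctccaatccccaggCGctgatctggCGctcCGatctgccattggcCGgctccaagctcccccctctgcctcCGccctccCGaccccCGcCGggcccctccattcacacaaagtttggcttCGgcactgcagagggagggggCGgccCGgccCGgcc
The Kcnj10 window held 21 CG pairs and a GC content of 63.7%, and the Kcnj9 window 5 CG pairs and 52.3%. Of 32851 RefSeq promoter windows, 24.8% held at least 21 CG pairs and 62.0% at least 5, with a median of 7. Windows were matched for 23 of the 27 channel genes, 3 of them above the bound on all 4 arrays. Windows of genes below the bound on every array held from 2 CG pairs (Kcnj1 among them) to 41 (Kcnj4). Those of genes above it on every array held 10 (Kcnj3 and Kcnk1) and 21 (Kcnj10). A relation of CG count to level was not tested.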

How the data were processed

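Each array's values were deposited by the authors as intensity, a linear signal for every probe set. The submitters' processing notes name GCOS. Its version, algorithm, scaling and detection calls: not given in the sources used here. In all, the table held 45101 probe sets, 64 of them controls, which were left out. Trimmed means of the deposited arrays spanned 46.6% of their average, and arrays were quantile-normalized in limma 3.58.1 (R 4.3.3), signals under 0.1 were set to 0.1, and log2 was taken. Gene symbols came from the platform annotation given with the array. The background list matched 82 of 90 genes, and 4 of these (Tff1, Lor, Krt1 and Tshb) themselves passed the bound on all 4 arrays. Samples were averaged within animals, and SDs are over 2 animals. Animal 2 was compared with animal 1 by lmFit and eBayes (trend) on probe sets that passed the bound on 2 or more arrays. That left 2 residual degrees of freedom, and a Benjamini-Hochberg adjusted p under 0.05 was called. The steps were run on simulated data with equal spread in both animals. The real pairs differ in spread, so this does not check the calls reported. By the naming rule, all channel genes are accounted for, with their values by sample where they passed the bound, as are the 2 genes of each partner list farthest above the bound, which is no ranking of their RNA, and its exceptions where 5 or fewer. Other genes, such as Rgs7bp on its called probe set, were named after their values were seen. Alternatives changed the bound, scaling, offset, filter, trend, probe set rule, block and samples. The channels and lists were chosen with earlier results of these data known. Promoter sequences are from RefSeq.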

Additional observations from a re-analysis of the deposited data

How the results depend on the processing

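With the bound at the 99th percentile, 2 channel genes and 4045 of all named genes were above it on all 4 arrays. With the median over probe sets there were 2 channel genes. Without probe sets ending in _s_at, _x_at or _a_at, 3955 named genes passed, 23.8% of those still read, against 33.7%. The bound was higher in that setting: Kcnj10, whose only probe set was kept, stood 1.39 above it rather than 1.88. Other bounds, scalings and array counts gave 4 to 6 channel genes, and leaving out single samples 4 to 5. The mean level of Kcnj11 was -0.69 from the bound at the 99th percentile and -0.80 with the median over probe sets, and that of Kcnj3 -0.61 with the median. Between the animals, 24 probe sets were called in the limma fit reported (17 higher in animal 2, 7 lower). The count was 337 on values as deposited (334 higher, 3 lower), 46 with an offset of 16 (27 and 19), 5 with no filter (5 and 0), 135 above the bound on all 4 arrays (73 and 62) and 0 without the trend. It ran from 7 to 1104 when 1 sample was left out, with 8 without 1-1 (7 and 1), 7 without 1-2 (7 and 0), but 853 without 2-1 (244 and 609) and 1104 without 2-2 (329 and 775), mostly lower. A lone sample is then assumed to vary like the pair of the other animal, and the pairs differ in spread. With sample number as a replicate block 409 were called (186 higher, 223 lower), 1 of them a channel probe set (Kcnj9, adjusted p = 8.58e-04), with 1 residual degree of freedom. Deviations of samples with the same number were not correlated between the animals (-0.02), and the labels do not state whether the numbers pair samples. On values as deposited 1 channel probe set was called too, and 0 under the alternatives not named, although its probe set was left out of the test by the filter on all 4 arrays and without sample 2-1 or 2-2. On deposited values Kcnj10 stood at 0.47, Kcnj3 at 0.28 and Kcnj11 at 0.47, and leaving out 1 sample moved Kcnj10 from -0.45 (without 2-1) to 0.21 (without 2-2) and Kcnj11 from -0.33 (without 1-2) to 0.16 (without 1-1). The cause of these moves was not tested. The spread between less that within animals was 0.38 on deposited values, where animal 2 stood a median of 0.46 higher over all probe sets tested. It was -0.01 to 0.21 when 1 sample was left out, lowest without 1-1. Dim signals near the bound limit what can be said of most of these channels.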
